A study of Mus musculus with 12 samples.

Results

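The 11 probe sets described here stand for 6 genes of the interleukin-2 (IL-2) receptor pathway, out of 45101 probe sets in the deposited table. A probe set is a group of array probes that together measure the transcripts of a gene. The set was defined by gene, with no threshold on measured values, though earlier results of these data were known when it was put together. Its gene names came with the list of probe sets (Affymetrix Mouse430_2), since the deposited table holds none. It holds Il2ra (1420691_AT and 1420692_AT), Il2rg (1416295_A_AT and 1416296_AT), Il15ra (1448681_AT), Jak1 (1433803_AT and 1433804_AT), Stat5a (1421469_A_AT and 1450259_A_AT) and Stat5b (1422102_A_AT and 1422103_A_AT). All 11 were tested, since each had log2 values of 5 or more on 3 or more arrays, as had 18271 of the 45037 probe sets other than array controls.

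Expression was measured in sorted CD4+ CD25hi spleen T cells on 12 arrays, 3 in each of 4 groups. Transgenic Treg cells came from pools of 3 to 8 C57BL/6-2Rbeta-WT/thymus transgenic mice aged 7 to 33 weeks, and C57BL/6 Treg cells from pools of 8 to 15 normal mice aged 10 to 12 weeks. Both were sorted from fresh spleen. Transgenic effector cells came from mice of the same transgenic strain aged 9 to 15 weeks, and C57BL/6 effector cells from normal mice aged 10 to 14 weeks, with 1 mouse per array. For these, whole spleen cells were first cultured for 48 hours with anti-CD3, which activates T cells through their antigen receptor. The transgenic mice lack the endogenous IL-2 receptor beta chain and carry a wild-type beta chain transgene described for the thymus, so that their mature T cells are defective in the IL-2 receptor. The sources used here do not name the transgene's promoter. Cells of every group were gated on CD25, the protein that Il2ra encodes, so Il2ra values are those of cells already selected for it.

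IL-2 is bound by a receptor of 3 chains. The alpha chain (CD25, Il2ra) raises the affinity, and the beta and gamma chains carry the signal into the cell. The gamma chain (Il2rg) is shared with the receptors of other cytokines, and the beta chain with the receptor of IL-15, whose own alpha chain is Il15ra. JAK1 is the kinase bound to the beta chain. Together with JAK3 on the gamma chain it leads to phosphorylation of STAT5A and STAT5B, closely related transcription factors for which Il2ra is a known target gene. Treg cells carry CD25 at all times, whereas conventional T cells acquire it on activation.

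The transcripts of Il2ra were the ones with a strain difference past the test, and the promoter window of this gene is shown for that reason. The window spans chr2:11642542-11642841 on the plus strand of GRCm38.p6 (RefSeq), that is 250 bases before the gene's start and 50 bases after it. Capitals mark a match to the consensus motif of the kappaB family of transcription factors, and 191 bases lie between that match and the start.
Il2ra promoter window: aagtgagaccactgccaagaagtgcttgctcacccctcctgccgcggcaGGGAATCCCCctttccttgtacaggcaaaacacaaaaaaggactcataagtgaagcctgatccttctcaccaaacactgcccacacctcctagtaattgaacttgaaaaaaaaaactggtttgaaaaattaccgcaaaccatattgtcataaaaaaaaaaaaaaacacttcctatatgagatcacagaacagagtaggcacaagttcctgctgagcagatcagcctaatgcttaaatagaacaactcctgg
RefSeq windows of this length were found for all 6 genes, 9 windows in all, and both strands of each were searched. The kappaB consensus stood in 2 of the 9, those of Il2ra and of 1 start of Stat5a, and in 4.51% of all 32851 mouse windows. The STAT motif TTCNNNGAA, where N is any base, stood in 0 of the 9 and in 8.30% of all windows. These letter matches describe the windows and are not measured binding. Stat5a and Stat5b lie side by side on chromosome 11, with 0 protein-coding genes between them in the same annotation. Il2ra and Il15ra are likewise direct neighbours on chromosome 2.

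Values are log2 GCRMA values, in which 1 unit is a 2-fold difference in signal. Treg and effector arrays differed in scale. The lowest values lay at 0.942 to 0.957 on Treg arrays and at 0.296 to 0.325 on effector arrays, while the 99th percentiles lay at 12.9 to 13.0 on Treg arrays and at 13.5 to 13.6 on effector arrays. Cell type, culture, activation, pooling of mice and the series of sample codes given by the array provider all change together between Treg and effector cells and cannot be told apart. In these bulk samples, fewer cells of a type and less RNA per cell cannot be told apart either. The gene disrupted in the transgenic mice, Il2rb, was not checked on the arrays, because the sources used here pair no probe set with it. Transgenic effector array 3 carries a purification label that describes fresh spleen cells, and values without it are given beside most of the effector results, including those that moved most.

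Few strain differences were called among the 11 probe sets, as among all tested probe sets. A probe set was called changed at a Benjamini-Hochberg adjusted p under 0.05 over all 18271 tested probe sets in limma. In effector cells 1 of 11 was called, Il2ra 1420692_AT, which fell in transgenic cells, where 2.99% of all tested probe sets were called and 1.08% called lower. In Treg cells 0 of 11 were called in limma, with adjusted p of 0.520 to 0.998, where 1.19% of all were called. Unadjusted p lay under 0.05 for 2 of the 11 in Treg cells, against 9.38% of all tested probe sets, and for 3 in effector cells, against 15.5%. The median log2 strain change of the 11 was -0.04 in Treg cells, against 0.03 over all tested probe sets, and 0.06 in effector cells, against -0.01. An uncalled probe set is not shown to be equal between strains. The 95% interval of the change stayed within 2-fold either way for 7 of the 11 in Treg cells and for 5 in effector cells.

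**Figure D1:**
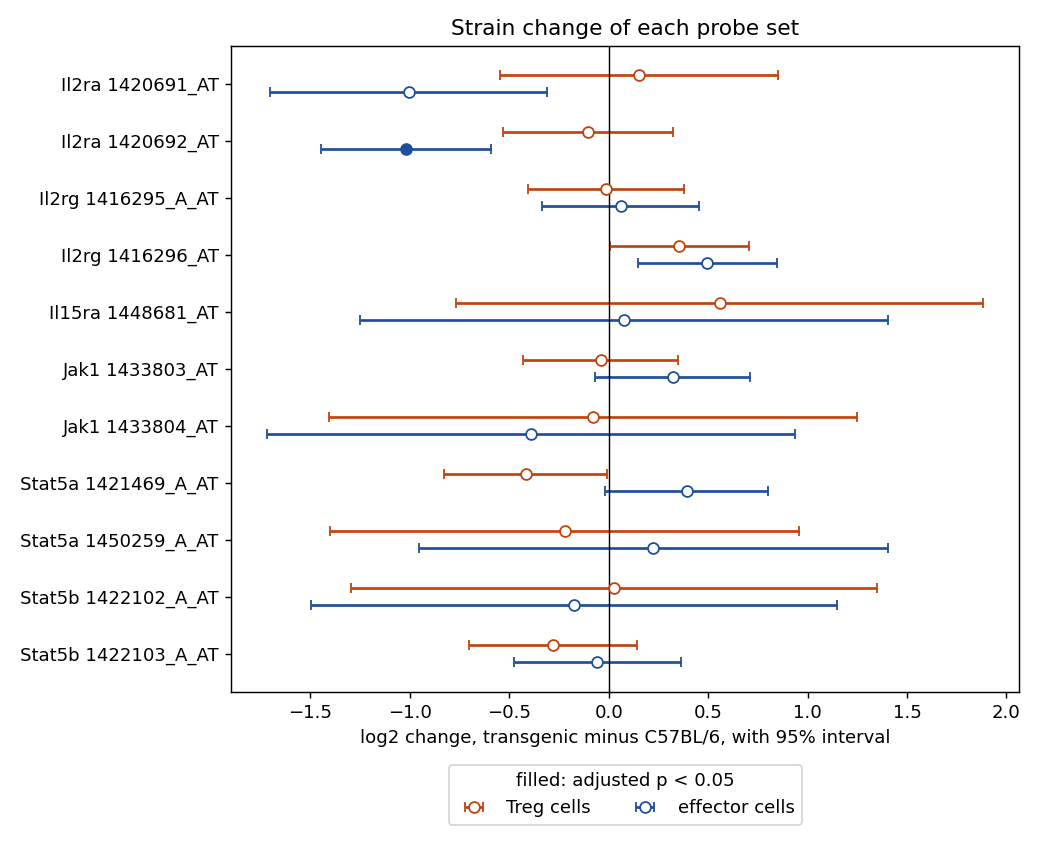
Log2 change between strains (transgenic minus C57BL/6) for each of the 11 probe sets, with its 95% interval from limma (3 arrays per group), in Treg cells (orange) and effector cells (blue). The 1 filled point, Il2ra 1420692_AT in effector cells at -1.02, is the 1 change with an adjusted p under 0.05, and the widest intervals belong to Il15ra, Jak1 1433804_AT, Stat5a 1450259_A_AT and Stat5b 1422102_A_AT.

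Il2ra, the high-affinity chain, had lower readings in transgenic effector cells on both of its probe sets, and the change on 1 of them passed the test. On 1420692_AT the transgenic effector arrays read 10.00, 10.36 and 10.51, against 11.12, 11.67 and 11.13 on the C57BL/6 effector arrays. All 3 transgenic arrays lay below all 3 C57BL/6 arrays. The log2 change was -1.02 (SE 0.19, 95% interval -1.44 to -0.59), 2.03-fold lower in transgenic cells (limma adjusted p = 0.0161). Without transgenic effector array 3 the change was -1.13 (limma adjusted p = 0.0188). The call was lost without C57BL/6 effector array 2 (-0.84, adjusted p = 0.0742) and without transgenic effector array 1 (-0.87, adjusted p = 0.0542), both in limma. It was also lost, at the same size of -1.02, in a limma fit to the 6 effector arrays alone (adjusted p = 0.0803).

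The other Il2ra probe set, 1420691_AT, read 9.93, 10.04 and 9.17 on transgenic effector arrays and 10.64, 10.62 and 10.89 on C57BL/6 effector arrays. Here too the groups did not overlap. The log2 change of -1.01 (SE 0.32) was close to that of 1420692_AT, but with the larger spread of this probe set it missed the threshold (limma adjusted p = 0.138). Its lowest effector reading came from transgenic array 3, without which the change was -0.73 (limma adjusted p = 0.324). Array weights also gave -0.73, and there the change was called (limma adjusted p = 0.0216). That fit called 3033 of all 18271 tested probe sets in effector cells, against 547 in the reported fit. Ranges failed to overlap between strains in effector cells for 4 of the 11 probe sets, 2 above and 2 below, where 22.8% of all tested probe sets did so, 12.7% above and 10.1% below.

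In Treg cells Il2ra showed no called strain change. On 1420692_AT transgenic Treg arrays read 10.95, 10.85 and 10.95, within the C57BL/6 Treg readings of 11.16, 11.19 and 10.72. The log2 change was -0.10 (95% interval -0.53 to 0.32). On 1420691_AT transgenic Treg arrays read 9.97, 9.26 and 9.84, and C57BL/6 Treg arrays 8.99, 9.44 and 10.18, with a log2 change of 0.15 (95% interval -0.54 to 0.85). The strain change in Treg cells minus that in effector cells was 0.92 (SE 0.27) on 1420692_AT and 1.16 (SE 0.45) on 1420691_AT. Neither difference passed the limma test (adjusted p = 0.139 and 0.280), so the strain change of Il2ra is not shown to differ between the populations. Of the 11, 0 were called in limma, where 2.26% of all tested probe sets were called, and 3 had an unadjusted p under 0.05, against 13.5% of all. With array weights the difference was called on 1420691_AT (0.93, limma adjusted p = 0.0396) and on 1420692_AT (0.74, limma adjusted p = 0.0452). That on 1420692_AT was also called with the beta-actin control reading as a covariate (limma adjusted p = 0.0148). Array weights called 2529 of all 18271 tested probe sets for this difference and the covariate 578, against 413 in the reported fit.

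Set by level, 1420692_AT was highest in C57BL/6 effector cells (11.31 ± 0.32, SD, n = 3), followed by C57BL/6 Treg cells (11.02 ± 0.26) and transgenic Treg cells (10.92 ± 0.06), each overlapping its neighbour. Transgenic effector cells (10.29 ± 0.26) stood apart below them. On 1420691_AT it was C57BL/6 effector cells (10.72 ± 0.15) that stood apart, above the other 3 groups, which overlapped at means of 9.54 to 9.71.

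**Figure D2:**
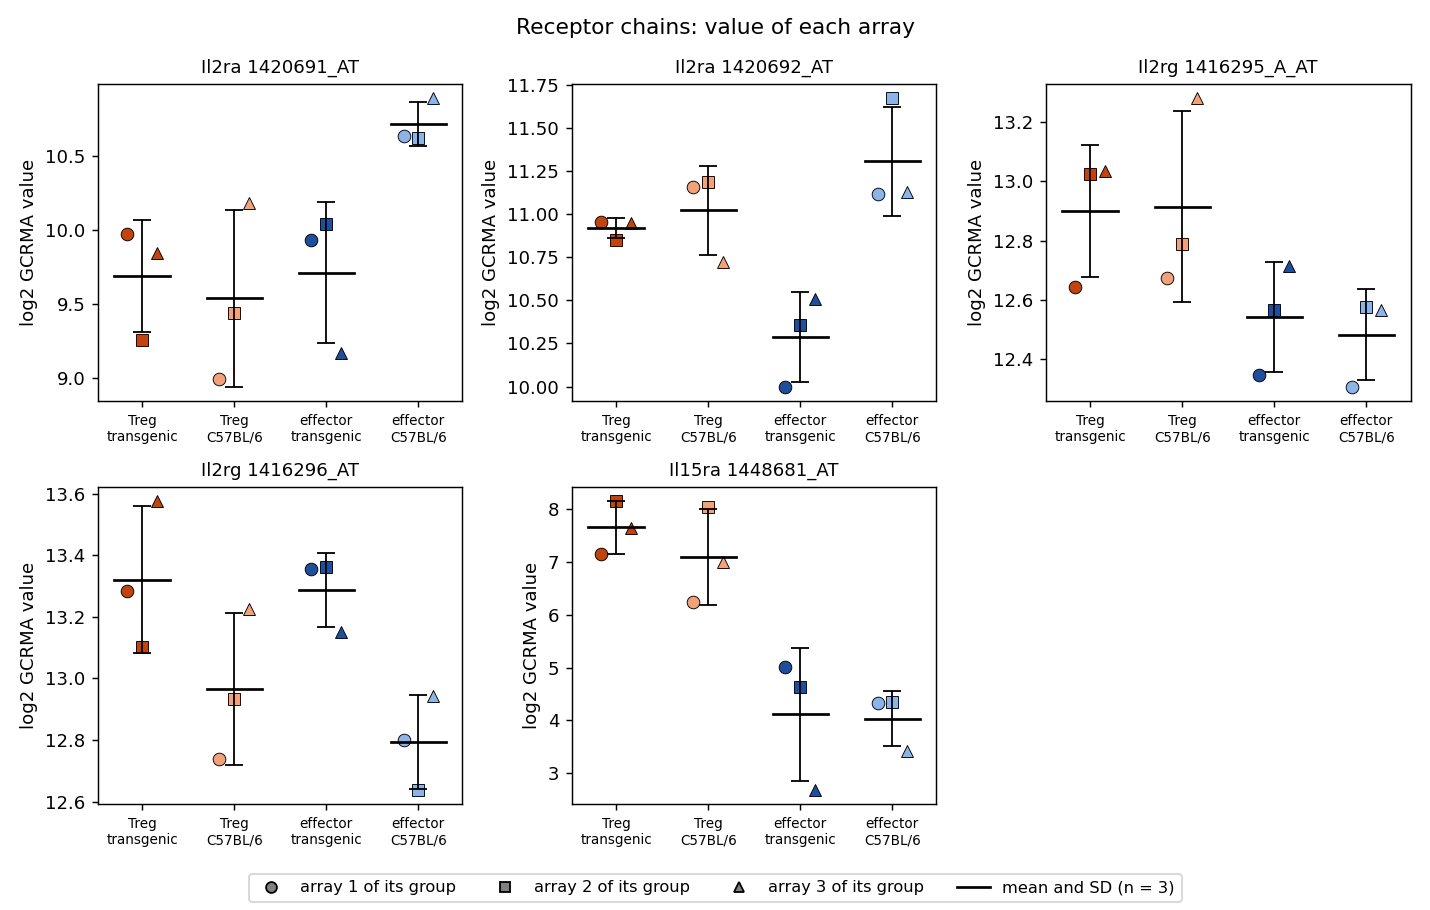
Log2 GCRMA value of every array for the 5 probe sets of the receptor chains, with points for arrays and bars for the mean and SD of each group (n = 3); each panel has its own vertical scale, which does not start at 0. On both Il2ra probe sets the 3 transgenic effector arrays lie below the 3 C57BL/6 effector arrays, and Il15ra lies above 6 on all Treg arrays and at or below 5.01 on all effector arrays.

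Il2rg, the common gamma chain, had no called strain change on either probe set. Readings of different probe sets do not order transcripts by abundance, so levels are compared only within a probe set. On 1416296_AT the transgenic effector arrays read 13.35, 13.36 and 13.15, all above the C57BL/6 effector readings of 12.80, 12.64 and 12.94. The log2 change of 0.50 (SE 0.16) was not called (limma adjusted p = 0.146), and without transgenic effector array 3 it was 0.56 (limma adjusted p = 0.151). It was called with array weights (0.56, limma adjusted p = 0.00663) and with the beta-actin control reading as a covariate (0.48, limma adjusted p = 0.0397). These fits called 3033 and 838 of all 18271 tested probe sets in effector cells, against 547 in the reported fit. In Treg cells the same probe set read 13.28, 13.10 and 13.58 on transgenic arrays and 12.74, 12.93 and 13.23 on C57BL/6 arrays. These ranges overlapped, with a change of 0.36 (limma adjusted p = 0.520). The second probe set, 1416295_A_AT, did not share that pattern: its strain changes were -0.01 in Treg cells (95% interval -0.41 to 0.38) and 0.06 in effector cells (95% interval -0.33 to 0.45).

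Il15ra, the alpha chain that binds IL-15, had no called strain change. It read 7.15, 8.15 and 7.65 on transgenic Treg arrays and 6.24, 8.04 and 6.99 on C57BL/6 Treg arrays. On effector arrays it read 5.01, 4.64 and 2.69 in transgenic cells and 4.32, 4.35 and 3.43 in C57BL/6 cells. Between strains the groups overlapped in both populations, with changes of 0.56 in Treg cells (95% interval -0.77 to 1.88) and 0.08 in effector cells (95% interval -1.25 to 1.41). Without transgenic effector array 3, the lowest effector reading, the effector change was 0.79 (limma adjusted p = 0.563). Effector readings lay below 5, the level at which probe sets were kept, on 2 of 3 transgenic and 3 of 3 C57BL/6 arrays. The effector strain changes of Il15ra therefore compare low readings. All Treg arrays lay above all effector arrays.

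Between the populations, 4 of the 11 probe sets were called in C57BL/6 mice, 3 higher and 1 lower in Treg cells. This share is read against 73.8% of all tested probe sets called in the same comparison, 31.7% higher and 42.0% lower. In transgenic mice 4 of 11 were called, 3 higher and 1 lower, where 70.0% of all were called, 30.0% higher and 40.0% lower. The median log2 difference over the 11 was 0.17 in C57BL/6 mice, against -0.26 over all tested probe sets, and 0.04 in transgenic mice, against -0.21. Quantile normalization between arrays moved the overall median to -0.04 in C57BL/6 mice and to 0.02 in transgenic mice. Under it 6 of the 11 were called in C57BL/6 mice, 6 higher and 0 lower. Of all 18186 probe sets tested there, 12756 were called, 6268 higher and 6488 lower. In transgenic mice 8 of the 11 were called, 7 higher and 1 lower, where 11925 of all were called, 6024 higher and 5901 lower. Small differences between the populations therefore depend on scaling.

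Il15ra had the widest separation between the populations, with all Treg readings above all effector readings. It entered the test through its Treg arrays, since 5 of the 6 effector readings lay below 5, the level at which probe sets were kept. Sizes are therefore given as bounds, with lower effector readings raised to 5. On that basis the mean Il15ra reading was at least 6.25-fold higher in Treg cells of transgenic mice. In C57BL/6 mice it was at least 4.26-fold higher. These bounds on means allow for the low effector readings and not for the spread between arrays. Without raised readings, the 95% intervals from limma began at 4.63-fold in transgenic and 3.32-fold in C57BL/6 mice. With no filter on low values, limma gave Il15ra an adjusted p of 0.000368 in transgenic and 0.000992 in C57BL/6 mice. Without Il15ra, 3 of the other 10 probe sets were called in each strain, 2 of them higher in Treg cells.

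For Il2ra, each strain had 1 called population difference, on different probe sets. In C57BL/6 mice 1420691_AT was lower in Treg cells by a log2 difference of -1.18 (SE 0.32, limma adjusted p = 0.00555), while the difference on 1420692_AT was -0.28 (limma adjusted p = 0.204). Under quantile normalization these became -0.57 (limma adjusted p = 0.127) and 0.42 (limma adjusted p = 0.0844), so the call ended and the sign of the second turned. In transgenic mice 1420692_AT was higher in Treg cells by 0.63 (limma adjusted p = 0.0124), and 1420691_AT did not differ by a called amount (-0.02, limma adjusted p = 0.956). Without transgenic effector array 1 the first of these was 0.49 and no longer called (limma adjusted p = 0.0558). Il2rg 1416295_A_AT was higher in C57BL/6 Treg cells by 0.43 (limma adjusted p = 0.0474), a call kept in 10 of 22 alternatives, while in transgenic mice its difference was 0.36 (limma adjusted p = 0.0956).

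Jak1, the kinase of the beta chain, was higher in Treg than in effector cells in both strains. On 1433803_AT transgenic Treg arrays read 11.55, 11.81 and 11.46, and C57BL/6 Treg arrays 11.67, 11.50 and 11.78. Effector arrays read 10.71, 10.65 and 10.36 in transgenic cells and 10.30, 9.91 and 10.54 in C57BL/6 cells. Every Treg array lay above every effector array, and within each population the strains overlapped. Treg minus effector was 1.40 in C57BL/6 mice (SE 0.18, 2.63-fold, limma adjusted p = 2.48e-05) and 1.03 in transgenic mice (SE 0.18, 2.05-fold, limma adjusted p = 0.000294). It was called in each of 22 alternatives in both strains, and quantile normalization moved it to 2.06 in C57BL/6 and 1.68 in transgenic mice. Without transgenic effector array 3 the transgenic difference was 0.92 (limma adjusted p = 0.00132), and the strain change of Jak1 1433803_AT in effector cells was 0.43 (limma adjusted p = 0.333). The strain changes of this probe set were -0.04 in Treg cells (95% interval -0.43 to 0.35) and 0.32 in effector cells (95% interval -0.07 to 0.71).

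The second Jak1 probe set, 1433804_AT, had population differences of 1.08 in C57BL/6 mice (SE 0.60, limma adjusted p = 0.127) and 1.39 in transgenic mice (SE 0.60, limma adjusted p = 0.0585). They had the sign of those on 1433803_AT but were not called. Transgenic effector arrays read 9.31, 9.27 and 7.24 and C57BL/6 effector arrays 9.45, 7.84 and 9.71. In each strain 1 effector array was low, transgenic array 3 and C57BL/6 array 2. Without the low transgenic array the population difference in transgenic mice was 0.71 (limma adjusted p = 0.245), and without the low C57BL/6 array that in C57BL/6 mice was 0.50 (limma adjusted p = 0.460). The strain change in effector cells was -0.39 with all arrays, 0.29 without transgenic array 3 and -0.97 without C57BL/6 array 2, and was not called in these fits. Transgenic Treg arrays read 10.09, 9.35 and 10.55 and C57BL/6 Treg arrays 10.02, 9.70 and 10.51.

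**Figure D3:**
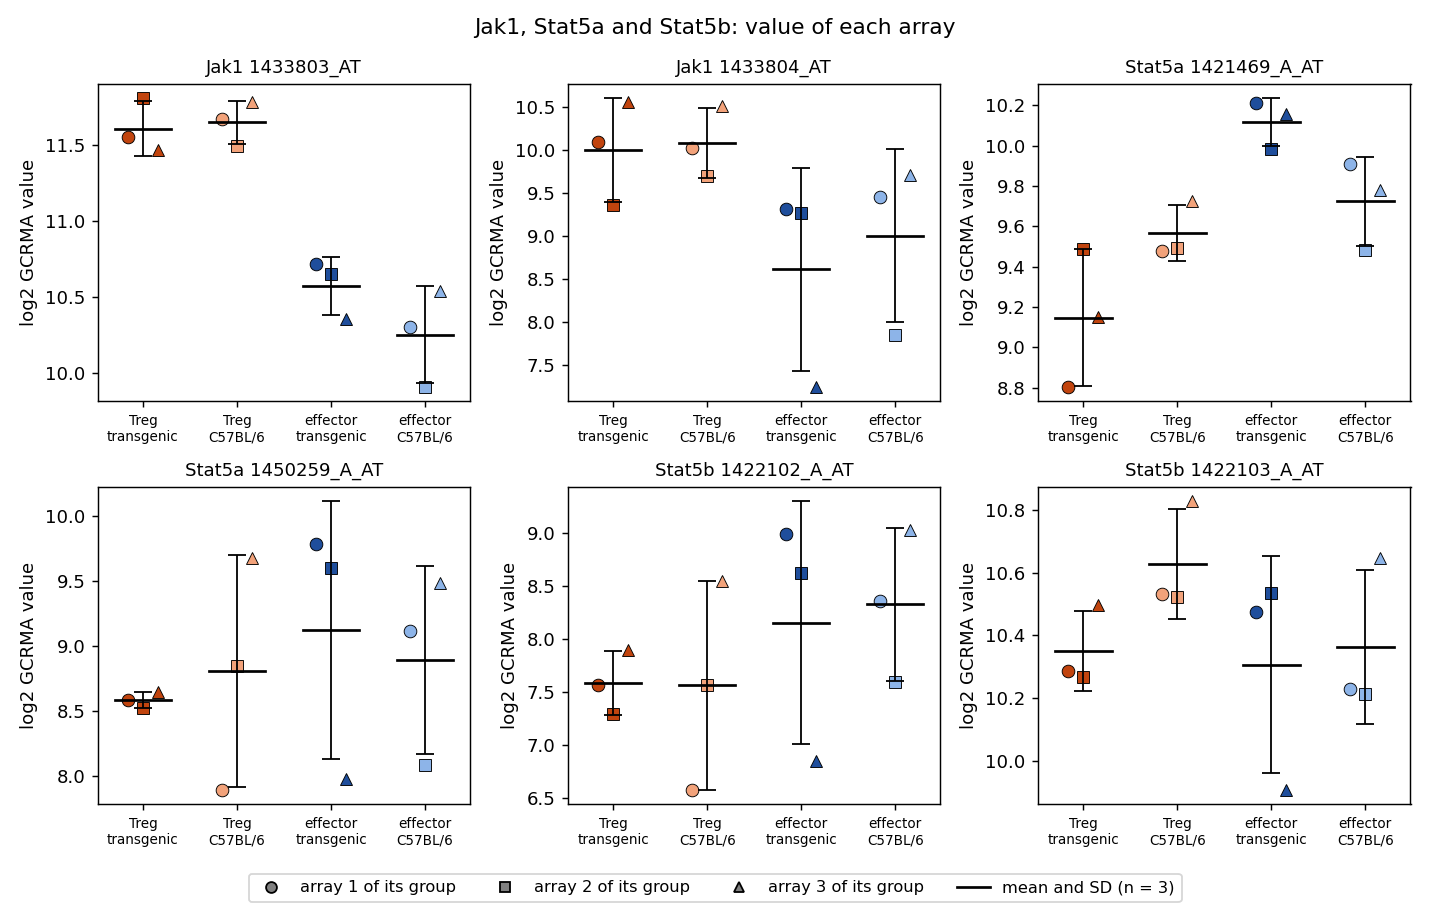
Log2 GCRMA value of every array for the 6 probe sets of Jak1, Stat5a and Stat5b, with points for arrays and bars for the mean and SD of each group (n = 3); each panel has its own vertical scale, which does not start at 0. Jak1 1433803_AT separates all Treg arrays from all effector arrays, and Jak1 1433804_AT, Stat5a 1450259_A_AT and Stat5b 1422102_A_AT share low readings on transgenic effector array 3 and C57BL/6 effector array 2.

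Stat5a, 1 of the transcription factors activated through the receptor, had its highest level in transgenic effector cells on 1421469_A_AT. These arrays read 10.21, 9.98 and 10.15, above the C57BL/6 effector arrays at 9.91, 9.48 and 9.78. In Treg cells the readings were 8.80, 9.49 and 9.15 on transgenic arrays and 9.48, 9.49 and 9.72 on C57BL/6 arrays. Effector groups did not overlap, whereas the Treg groups did, narrowly. Neither strain change was called: 0.39 in effector cells (SE 0.19, limma adjusted p = 0.345) and -0.42 in Treg cells (SE 0.19, limma adjusted p = 0.520). The difference between both changes was -0.81 (SE 0.26, 95% interval -1.39 to -0.23), with a limma adjusted p of 0.182. The lowest Treg reading came from transgenic array 1, the pool of the oldest mice, and without it the Treg change was -0.25 (limma adjusted p = 0.99986).

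Within transgenic mice Stat5a 1421469_A_AT was lower in Treg than in effector cells by a log2 difference of -0.97 (SE 0.19, 1.96-fold lower, limma adjusted p = 0.000666). This was called in each of 22 alternatives, at -1.14 to -0.44, the smallest size under quantile normalization, and without transgenic effector array 3 it was -0.95. In C57BL/6 mice the difference was -0.16 (limma adjusted p = 0.456), with overlapping groups. The order of levels was therefore transgenic effector cells (10.12 ± 0.12), then C57BL/6 effector cells (9.72 ± 0.22), C57BL/6 Treg cells (9.56 ± 0.14) and transgenic Treg cells (9.15 ± 0.34), of which only the first stood apart from its neighbour (SD, n = 3 each). The other Stat5a probe set, 1450259_A_AT, gave no called difference in any comparison of the reported fit. With array weights it was called lower in Treg cells of transgenic mice (-0.96, limma adjusted p = 0.0329). Its strain changes were -0.22 in Treg cells (95% interval -1.40 to 0.96) and 0.23 in effector cells (95% interval -0.95 to 1.40). Without transgenic effector array 3 the effector change was 0.79 (limma adjusted p = 0.541).

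Stat5b, the close relative of Stat5a, had no called difference in any comparison of the reported fit on either probe set. Treg minus effector on 1422103_A_AT was 0.27 in C57BL/6 and 0.04 in transgenic mice. Quantile normalization moved these to 0.92 and 0.66, both called (limma adjusted p = 0.000626 and 0.00620). On 1422102_A_AT they were -0.77 and -0.57 uncalled, and -0.77 and -1.03 with array weights, both called (limma adjusted p = 0.0302 and 0.0336). On 1422103_A_AT transgenic Treg arrays read 10.29, 10.27 and 10.50, and C57BL/6 Treg arrays 10.53, 10.52 and 10.83. The transgenic readings all lay below the C57BL/6 ones, the 1 of 11 probe sets without overlap between strains in Treg cells, where 14.8% of all tested probe sets had none and 7.18% lay below. The change was -0.28 (SE 0.19, limma adjusted p = 0.786). In effector cells it read 10.48, 10.54 and 9.91 in transgenic and 10.23, 10.21 and 10.65 in C57BL/6 cells, a change of -0.06 (95% interval -0.48 to 0.37), and without transgenic effector array 3 the change was 0.14. On 1422102_A_AT the strain changes were 0.03 in Treg cells and -0.17 in effector cells, with 95% intervals of -1.30 to 1.35 and -1.50 to 1.15. Without transgenic effector array 3 the effector change on that probe set was 0.48 (limma adjusted p = 0.827).

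Probe sets of 1 gene differed widely in their spread. The SD pooled over the 4 groups was 0.759 to 0.859 for Il15ra, Jak1 1433804_AT, Stat5a 1450259_A_AT and Stat5b 1422102_A_AT, and 0.197 to 0.434 for the other 7, with a median of 0.296 over all tested probe sets. The last 3 of the 4 moved together over arrays, and the less variable Stat5b 1422103_A_AT moved with them. Stat5a 1450259_A_AT read 8.58, 8.53 and 8.65 on transgenic Treg arrays and 7.90, 8.85 and 9.68 on C57BL/6 Treg arrays, and 9.78, 9.60 and 7.98 on transgenic effector arrays and 9.12, 8.09 and 9.48 on C57BL/6 effector arrays. Stat5b 1422102_A_AT read 7.57, 7.29 and 7.90 on transgenic Treg arrays and 6.58, 7.56 and 8.55 on C57BL/6 Treg arrays, and 9.00, 8.62 and 6.85 on transgenic effector arrays and 8.36, 7.59 and 9.04 on C57BL/6 effector arrays. Both were low on C57BL/6 Treg array 1, transgenic effector array 3 and C57BL/6 effector array 2, and Jak1 1433804_AT was low on both of these effector arrays but not on that Treg array.

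A control reading moved with these arrays. The array's 3' probe set for beta-actin minus its 5' probe set, which widens when RNA is shortened or copied incompletely, was 0.82 on transgenic effector array 3, against 0.36 and 0.42 on the other transgenic effector arrays. It was 0.80 on C57BL/6 effector array 2, against 0.45 and 0.41 on the others of that group. On Treg arrays it was 0.61, 0.68 and 0.50 in transgenic and 0.88, 0.80 and 0.56 in C57BL/6 cells, widest on C57BL/6 array 1. After each population's mean was subtracted, it correlated over the 12 arrays at r = -0.86 with Jak1 1433804_AT, -0.85 with Stat5a 1450259_A_AT and -0.90 with Stat5b 1422102_A_AT. The median r over all tested probe sets was -0.03. That median does not show how common r of such size is among them, which was not counted. For Il2ra 1420692_AT, the called strain change, r was 0.45, and for Stat5a 1421469_A_AT it was -0.03. The other probe sets had r of -0.63 (Il2rg 1416296_AT), -0.58 (Stat5b 1422103_A_AT), -0.54 (Jak1 1433803_AT), -0.53 (Il2ra 1420691_AT), -0.44 (Il15ra) and 0.00 (Il2rg 1416295_A_AT). These values share the arrays, their amplification and their normalization and are given as a description. The part of RNA quality in any difference was not tested beyond the following values. With the reading as a covariate, an alternative chosen after seeing the data, 3 of the 11 probe sets were called in effector cells. They were Il2ra 1420692_AT (-0.9996, limma adjusted p = 0.00199) and 1420691_AT (-1.04, limma adjusted p = 0.0234), both lower, and Il2rg 1416296_AT, higher. That fit called 838 of all 18271 tested probe sets in effector cells, against 547 in the reported fit. Without the effector array of the widest gap in each strain, the change on 1420692_AT was -0.94 and missed the threshold (limma adjusted p = 0.0534).

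**Figure D4:**
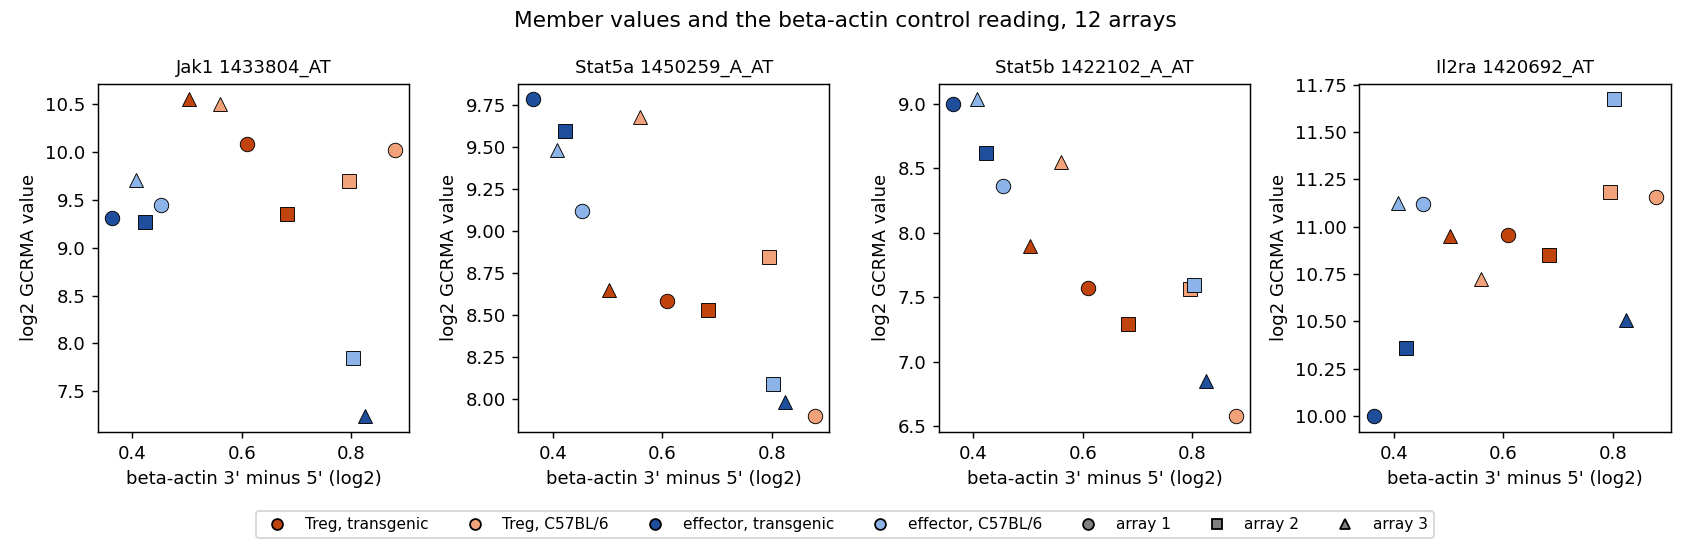
Log2 GCRMA value of 4 probe sets (vertical axes) against the 3' minus 5' beta-actin control reading (horizontal axes, log2) on the 12 arrays, coloured by group. Stat5a 1450259_A_AT and Stat5b 1422102_A_AT are lower where the reading is wide. On Il2ra 1420692_AT the transgenic effector arrays lie below the C57BL/6 effector arrays. Among effector arrays, only transgenic array 3 and C57BL/6 array 2 have wide readings.

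Likeness of pattern was measured as Pearson's r over the 12 arrays after each population's mean was subtracted, among 18271 probe sets. Stat5a 1450259_A_AT and Stat5b 1422102_A_AT had r = 0.95, a pair singled out after its values were seen. Probe sets of 1 gene were less alike, at 0.42 for Il2ra, 0.28 for Il2rg, 0.43 for Jak1, 0.34 for Stat5a and 0.79 for Stat5b. For the probe set of highest mean of each gene, the gene's own members were left out. The 3 most similar of the remaining tested probe sets had r of 0.865 to 0.977, and none of these was among the 11. They are not named, because the sources used here do not pair them with genes.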

How the data were processed

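The authors deposited log2 values, 1 per probe set and array, made with GCRMA, which corrects probe intensities for background, normalizes arrays and combines the probes of a set, per the submitters' processing notes. Its version, and whether both populations were normalized together, are not given in the sources used here. Per the labels' protocols, the RNA went through a single amplification by in vitro transcription. The number of arrays limits the precision.

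Array controls (64 probe sets) were not tested. Probe sets at a log2 value of 5 or more on at least 3 arrays were tested, which kept 18271 of 45037. A linear model of the 4 groups over the 12 arrays was fitted with limma 3.58.1 (R 4.3.3, eBayes with trend), and p-values were adjusted by Benjamini-Hochberg over all tested probe sets. Transgenic was compared with C57BL/6 within each population and Treg with effector within each strain, and the strain changes of both populations were compared with each other. Tables were made in Python 3.11.15 and figures in matplotlib 3.10.9.

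The members and lists were chosen with earlier results of these data known. The naming rule was all 11 member probe sets, plus the 3 most similar probe sets per gene. Lists of other pathway genes and of cell type markers could not be looked up, because no source used here pairs probe sets with genes. The sort purity in the labels, 99.0 to 99.9% CD4+ CD25+ cells and not given for C57BL/6 Treg array 3, is the check of cell identity given.

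Per the labels, a group's samples are separate biological replicates. Replicate numbers follow the titles, and the description fields of C57BL/6 effector array 3 and transgenic effector array 2 carry another number. Array deviations of same-numbered Treg arrays correlated at 0.58, 0.10 and 0.51, all above 0.1. By that cut these arrays were treated as possible pairs, from the data and not the labels, and a block was used in an alternative fit only. Same-numbered effector arrays correlated at 0.21, -0.34 and -0.34 and were not taken as paired. Among unlike numbers, transgenic Treg array 2 correlated at 0.11 with C57BL/6 Treg array 3, above the 0.10 of its own number. Transgenic effector arrays 2 and 3 correlated at 0.42 and 0.40 with C57BL/6 effector arrays 3 and 2. These correlations cannot establish pairing, and the reported fit used no block. Alternatives were other filters, normalizations, variance models and thresholds, array weights, blocks, fits restricted to the arrays compared, and leaving out each array.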

Additional observations from a re-analysis of the deposited data

How the results depend on the processing

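There were 24 alternatives, of which the one with another adjusted p threshold recomputed no log2 change. The 55 log2 changes (11 probe sets in 5 contrasts) were recomputed under the others, 1209 values in all. Of these, 1156 kept their call and, where called, their direction, while 18 lost a call, 34 gained one and 1 reversed. A further count within the first, 79 values in 25 of the 55 results, changed sign while uncalled in both, the largest of these results being 0.77 in size. The reversed value was Stat5a 1450259_A_AT, Treg minus effector in C57BL/6 mice, at 0.63 (limma adjusted p = 0.0223) with the beta-actin reading as a covariate, against -0.09 and uncalled without it. Its other alternatives, all uncalled, ran at -0.52 to 0.37. That covariate, and leaving out the effector array of the widest beta-actin gap in each strain, were chosen after seeing the data.

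The number of called probe sets among the 11 for the strain change in effector cells was 1. It was 3 with array weights, 3 with the beta-actin covariate, 0 with the arrays of the contrast alone, 0 without the widest-gap arrays, and 0 to 1 when single arrays were left out, with 0 without C57BL/6 effector array 2 or transgenic effector array 1. For Treg against effector cells in C57BL/6 mice it was 4, against 7 with array weights, 8 with the covariate, 6 with quantile normalization and 3 to 4 without single arrays. In transgenic mice it was 4, against 8 with quantile normalization, 7 with array weights and 4 to 5 without single arrays. For the difference of strain changes it was 0, against 2 with array weights and 1 with the covariate. Among the 11, the strain count in Treg cells was 0 under every alternative run. Over all 18271 tested probe sets, array weights called 3033 for the strain change in effector cells and 2529 for the difference of strain changes. For the population difference they called 15643 in C57BL/6 and 14122 in transgenic mice. The covariate called 838, 578, 13740 and 13498 in that order, and the reported fit 547, 413, 13475 and 12789. Quantile normalization called 12756 and 11925 of 18186 for the population differences. Causes were not tested, except that fewer arrays entered the reduced fits.

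With the replicate number as a block, the count for the strain change was 0 in Treg cells and 1 in effector cells. The numbers were treated as possible pairs in Treg cells only, though the block was fitted in effector cells too. The count was 4 and 5 for the population difference in C57BL/6 and transgenic mice, and 0 for the difference of strain changes. Among the 11, the block added 1 call, Il2rg 1416295_A_AT between populations in transgenic mice (0.36, limma adjusted p = 0.0243), and changed no other call. Over all tested probe sets it called 184, 522, 13380, 12772 and 371 in the order just given.

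Over all tested probe sets, called numbers ran over the alternatives at 68 to 1232 for the strain change in Treg cells (218 as reported), 240 to 3033 in effector cells (547), 9937 to 31870 and 9288 to 31397 for the population difference in C57BL/6 (13475) and transgenic mice (12789), and 198 to 2529 for the difference of strain changes (413). A block for consecutive sample codes of the array provider gave no value for effector or population contrasts, since the effector arrays' codes formed 1 series and the populations shared none. Whether these codes mark array runs is not stated. With 3 arrays per group, an exact two-sided permutation test cannot give a p below 0.1.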
